A study of Homo sapiens with 4 samples.

Results

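The genes described here are the zinc finger genes of human chromosome 19, taken as every protein-coding gene on that chromosome whose symbol is ZNF followed by a number and at most 1 further letter. This gave 246 of the 58219 genes in the table, against 264 protein-coding genes named in the same way on other chromosomes. Their RNA was measured in WI-38 cells, normal fibroblasts from human embryonic lung, which were transfected with siRNA and made senescent with 10 Gy of ionizing radiation, so that both groups consisted of irradiated cells harvested at day 8. One group received a scrambled control siRNA (siCTL) and the other an siRNA against exon 4 of G3BP1 (siG3BP1), an RNA-binding protein needed for stress granules, and each group had 2 libraries of total RNA, A and B. The question put to the series was how depletion of G3BP1 changed the transcriptome of senescent cells. WI-38 is a single cell line, only 1 siRNA against G3BP1 was used in these libraries, and the labels do not state that A and B came from separate cultures, so p-values measure only the spread between these libraries, which may be technical.

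Most of these genes encode DNA-binding proteins of the Krüppel-associated box (KRAB) family, in which a run of C2H2 zinc fingers, each held together by a pair of cysteines and a pair of histidines around a zinc ion, reads the DNA, and a KRAB domain at the amino-terminal end binds the corepressor TRIM28 (KAP1). TRIM28 in turn gathers SETDB1, which methylates lysine 9 of histone H3, the HP1 proteins that bind this mark, and the NuRD deacetylase complex. Many family members are known to silence particular families of transposable elements, and the human family grew largely by tandem duplication, which left dense clusters of related genes on chromosome 19.

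The genes share a coding sequence built from one repeated unit, the finger with its linker, which can be spelled in AT-rich or GC-rich codons. The coding stretch for 1 linker and the finger after it is shown, read from GRCh38, for a pair of members among the largest falls and a pair among the largest rises, with the codons of the 2 cysteines and 2 histidines in capitals and the other bases in lower case.
ZNF525, chr19:53381375-53381458, plus strand: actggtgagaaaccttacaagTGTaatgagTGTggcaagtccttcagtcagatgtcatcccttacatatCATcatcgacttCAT
ZNF813, chr19:53491028-53491111, plus strand: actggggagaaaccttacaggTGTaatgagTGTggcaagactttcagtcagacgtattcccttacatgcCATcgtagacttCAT
ZNF787, chr19:56088740-56088823, minus strand: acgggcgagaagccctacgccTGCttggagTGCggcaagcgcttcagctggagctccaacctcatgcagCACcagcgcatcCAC
ZNF837, chr19:58368094-58368177, minus strand: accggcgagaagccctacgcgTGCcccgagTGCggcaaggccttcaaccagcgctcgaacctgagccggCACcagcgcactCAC
ZNF525 and ZNF813, which lie in the same cluster, had the same base at 73 of the 84 positions, ZNF787 and ZNF837 at 66, and ZNF525 and ZNF837 at 52. The GC content of the stretch was 41.7% in ZNF525, 45.2% in ZNF813, 64.3% in ZNF787 and 69.0% in ZNF837, and over the 182 tested members with such a stretch it ran from 29.8% to 69.0% with a median of 41.7%.

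In the 4 libraries, between 16944404 and 22745000 reads were counted in genes. Where a pair of values is given for a group, the first is library A and the second library B. G3BP1 itself, which checks the labels, was at 2675 and 2522 normalized reads with siCTL and 201 and 271 with siG3BP1. The fibroblast markers fixed for the check (COL1A1, COL1A2, COL3A1, VIM, THY1, PDGFRB, DCN and FN1) were all expressed, with 8 of 8 over the minimum mean, and the highest of the 16 markers of other cell types (epithelium, endothelium, immune cells, muscle) was KRT19 with a mean of 156 normalized reads. In every library the departure from a gene's mean went along with the GC content of its exons, with a Spearman's rho over 13350 genes of -0.79 and -0.71 in the siCTL and 0.77 and 0.62 in the siG3BP1 libraries. Normalized reads are the reads of a gene divided by a size factor of the library. A gene was tested when its mean over the 4 libraries was at least 10 normalized reads, which left 13422 genes, and a fold change is a difference of group means of log2(normalized reads + 0.5), siG3BP1 minus siCTL, so that the fold change of a gene with few reads depends on the added 0.5. Changes are called at an adjusted p under 0.05 from limma with Benjamini-Hochberg adjustment over all 13422 genes.

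Of the 246 members, 215 passed the minimum and were tested. The remaining 31 had means from 0 to 8.18 normalized reads, and 5 of them (ZNF257, ZNF676, ZNF729, ZNF98 and ZNF99) had no read in any library, which allows up to 3 reads in each. Among the tested members, 14 had a siG3BP1 mean under 10 normalized reads and passed the minimum through the siCTL libraries, and none passed it only through the siG3BP1 libraries. Of these 14, 11 are among the falls counted below. Reads of all members summed to 27897 and 28761 normalized reads with siCTL and to 18675 and 19658 with siG3BP1. As a share of all reads in genes this was 0.206% in both siCTL libraries, 0.0989% (A) and 0.125% (B) in the siG3BP1 libraries.

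The chromosome 19 zinc finger genes were for the most part lower after depletion of G3BP1. Of the 215 tested members, 144 fell, 18 rose and 53 did not pass the test. The falls were 67.0% of the tested members where 30.5% of all 13422 tested genes fell, and the rises 8.37% where 25.9% of all tested genes rose. The median log2 fold change was -1.20, with quartiles of -1.52 and -0.71, against a median of 0.04 over all tested genes. The full range ran from -2.79 for ZNF525 to 1.42 for ZNF524. Both siG3BP1 libraries were below both siCTL libraries for 174 members (80.9%, where 40.5% of all tested genes had this order). Both were above for 26 members (12.1%, where 42.8% of all tested genes had this order), and the groups overlapped for 15. In bulk RNA, fewer cells of a type and less RNA per cell cannot be told apart. In the fit without siCTL A 1 member fell and 0 rose, and without siCTL B 0 fell and 0 rose, while the median stayed at -1.23 and -1.16 and all 144 falls kept a negative fold change in both fits. Over all tested genes the median was 0.01 in the first of these fits and 0.03 in the second. Without siG3BP1 A the median of the members was -0.91, where that of all tested genes was 0.11. Without siG3BP1 B these medians were -1.46 and -0.04.

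The siG3BP1 libraries differed in how far they departed from the siCTL libraries. Against the siCTL mean the median member was at -1.46 on the log2 scale for siG3BP1 A and at -0.91 for siG3BP1 B. Library A was below library B of siG3BP1 for 168 of the 215 members (78.1%), against 53.8% of all tested genes. Among the 144 members that fell, A was the lower library for 132, and for the 18 members that rose, A was the higher library for 18. siG3BP1 A was also the siG3BP1 library with the stronger trend with GC content, and values corrected for that trend are given with the GC content of the members.

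With limma on this scale the largest fall was that of ZNF525, which lies on chr19:53365693-53392217 of GRCh38 and encodes 8 zinc fingers. It was at 51.1 and 43.5 normalized reads with siCTL and 2.20 and 17.2 with siG3BP1 (log2 fold change -2.79, standard error 0.52, adjusted p = 7.11e-06 from limma). Both siG3BP1 libraries were below both siCTL libraries, and siG3BP1 A held only a few reads. With edgeR on the recovered reads its log2 fold change was -2.27, next to -2.30 for ZNF813, and with the length correction it was -2.49, next to -2.56 for ZNF404. ZNF813 (chr19:53467735-53496255), in the same cluster and with the finger sequence printed above, was at 73.4 and 52.7 normalized reads with siCTL and 11.0 and 15.6 with siG3BP1 (log2 fold change -2.21, standard error 0.46, adjusted p = 4.08e-05 from limma). Here the siG3BP1 libraries were close to each other and far from the siCTL libraries. ZNF404 was at 28.7 and 18.998 normalized reads with siCTL and 2.20 and 8.19 with siG3BP1 (log2 fold change -2.30, standard error 0.60, adjusted p = 9.71e-04 from limma), and ZNF443 at 14.4 and 17.2 normalized reads with siCTL and 1.10 and 7.37 with siG3BP1 (log2 fold change -2.19, standard error 0.68, adjusted p = 0.00433 from limma). These are low counts, and in both genes siG3BP1 A was several times below siG3BP1 B. ZNF525, ZNF404, ZNF443 and ZNF626 are among the 14 members that passed the minimum mean through the siCTL libraries. About 18.1% of the 100-base windows of ZNF443 also occur in other genes, so that its reads are uncertain.

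ZNF527 was at 51.9 and 52.1 normalized reads with siCTL and 8.80 and 16.4 with siG3BP1 (log2 fold change -2.07, standard error 0.47, adjusted p = 1.72e-04 from limma). The siCTL libraries were nearly equal for this gene, and neither siG3BP1 library came near them. ZNF613 was at 35.9 and 46.0 normalized reads with siCTL and 4.398 and 20.5 with siG3BP1 and ZNF626 at 24.7 and 39.2 normalized reads with siCTL and 4.398 and 12.3 with siG3BP1, with log2 fold changes of -2.02 (adjusted p = 4.99e-04 from limma) and -2.0004 (adjusted p = 0.00126 from limma). In both of these genes the groups did not overlap, and the lowest library was siG3BP1 A. ZNF260, in which no KRAB pattern was found, was the most abundant of the 8 largest falls, at 162 and 230.4 normalized reads with siCTL and 36.3 and 68.0 with siG3BP1 (log2 fold change -1.95, standard error 0.36, adjusted p = 7.09e-06 from limma). Its lowest siCTL library was well above its highest siG3BP1 library. Altogether 135 of the falls exceeded 1 on the log2 scale, and 7 members had a log2 fold change under -2.

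**Figure D1:**
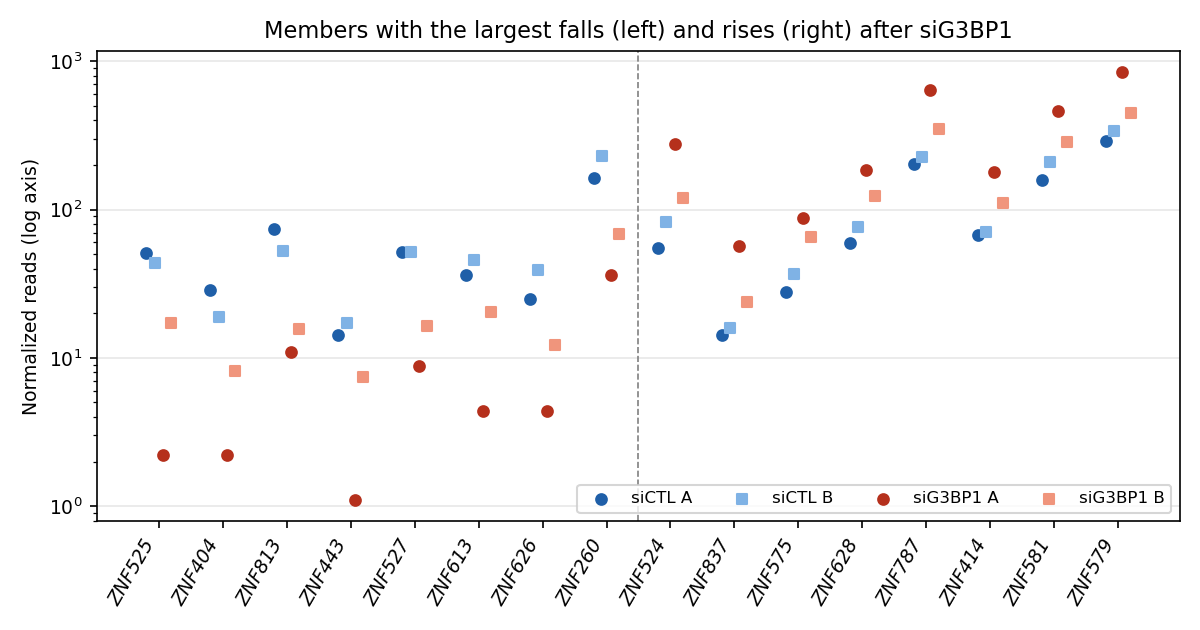
Normalized reads (log axis) of the 8 members with the largest falls and the 8 with the largest rises among those past the test whose groups did not overlap, with 1 point for each of the 4 libraries. Left of the dashed line every siG3BP1 point lies below both siCTL points, right of it every siG3BP1 point lies above them, and siG3BP1 A is the library further from siCTL in each gene.

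The 18 members that rose were GC-rich and mostly had few fingers and no KRAB pattern. ZNF524 (chr19:55600022-55603138) had the largest rise, at 55.1 and 82.1 normalized reads with siCTL and 275 and 119.6 with siG3BP1 (log2 fold change 1.42, standard error 0.36, adjusted p = 5.75e-04 from limma). Both siG3BP1 libraries were above both siCTL libraries, and siG3BP1 A was far above siG3BP1 B. ZNF837, whose GC-rich finger is printed above, was at 14.4 and 15.9 normalized reads with siCTL and 57.2 and 23.8 with siG3BP1 (log2 fold change 1.26, standard error 0.48, adjusted p = 0.0190 from limma). ZNF787 was at 204 and 227 normalized reads with siCTL and 643 and 347 with siG3BP1 (log2 fold change 1.13, standard error 0.34, adjusted p = 0.00332 from limma). In both genes the groups were apart, and siG3BP1 B lay between siG3BP1 A and the siCTL libraries. ZNF575 rose by 1.23 on the log2 scale (adjusted p = 0.00706 from limma), ZNF628 by 1.16 (adjusted p = 0.00454), ZNF414 by 1.02 (adjusted p = 0.0122), ZNF581 by 0.98 (adjusted p = 0.0102) and ZNF579 by 0.98 (adjusted p = 0.0103). Only 6 of the rises exceeded 1 on the log2 scale. The exonic GC content of the members that rose ran from 58.4% to 70.9% and that of the members that fell from 34.7% to 49.7%, with no overlap. The KRAB pattern was found in 1 of the 18 members that rose (ZNF324) and in 113 of the 144 that fell, and the median number of fingers was 6.5 and 13, respectively.

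Of the 6 most abundant members per length, 5 rose. Mean normalized reads per kb of exon were 219.7 for ZNF580, 212 for ZNF358, 170.1 for ZNF581, 164 for ZNF428, 145 for ZNF579 and 141 for ZNF317, against a median of 11.6 over the tested members. Of these, ZNF580 (357 and 488 normalized reads with siCTL and 810.3 and 633 with siG3BP1) rose by 0.78 on the log2 scale (adjusted p = 0.0397 from limma), ZNF358 by 0.93 (adjusted p = 0.0141) and ZNF428 by 0.89 (adjusted p = 0.0204). ZNF317, the one with 13 fingers and a KRAB pattern, had a log2 fold change of 0.51 and did not pass (adjusted p = 0.180). The directions of ZNF580 and ZNF358 turned after the GC correction described below, to -0.13 and -0.066. ZNF581, ZNF579 and ZNF428 were then at 0.059, 0.036 and 0.040. With the replicate letter as a block and no GC correction, ZNF580, ZNF358 and ZNF428 did not pass (adjusted p = 0.110, 0.0526 and 0.0541 from limma). ZNF581 and ZNF579 passed in that fit (adjusted p = 0.0353 and 0.0442 from limma). About 12.7% of the 100-base windows of ZNF581 and 17.2% of those of ZNF358 also occur in other genes.

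The 4 members nearest to no difference had log2 fold changes within 0.13 of 0. ZNF135 was at 63.9 and 74.2 normalized reads with siCTL and 62.7 and 74.6 with siG3BP1, and ZNF671 at 104 and 111 normalized reads with siCTL and 107 and 115 with siG3BP1. In both the groups overlapped. ZNF473, a protein of histone pre-mRNA processing rather than of silencing, was at 175 and 169 normalized reads with siCTL and 143 and 178 with siG3BP1, and ZNF552 had a log2 fold change of -0.13 with a standard error of 0.44. None of the 4 passed the test (adjusted p from 0.802 to 0.984 from limma). Their exonic GC content lay between 48.0% and 56.5%, above the upper quartile of the tested members (46.0%). After the GC correction described below, ZNF135, ZNF671, ZNF473 and ZNF552 were at -0.77, -0.17, -0.30 and -0.12. The corrected median of the tested members was -0.43, so ZNF135 was near 0 only before the correction.

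Some members with well-known targets are given as examples, singled out after the values had been seen. ZNF91, which silences SVA elements, was at 156 and 175 normalized reads with siCTL and 72.6 and 67.2 with siG3BP1 (log2 fold change -1.23, standard error 0.36, adjusted p = 0.00262 from limma). ZNF93, which binds L1 elements, was at 19.2 and 31.9 normalized reads with siCTL and 3.30 and 13.1 with siG3BP1 (log2 fold change -1.81, standard error 0.56, adjusted p = 0.00476 from limma). Both showed siG3BP1 libraries below the siCTL libraries. ZNF93 was at a low level and is another of the 14 members that passed the minimum mean through the siCTL libraries. ZNF587, which with the closely related ZNF417 silences HERV-K elements, was at 484 and 484 normalized reads with siCTL and 176 and 249.9 with siG3BP1 (log2 fold change -1.20, standard error 0.34, adjusted p = 0.00194 from limma), and ZNF417 fell by 1.15 on the log2 scale (adjusted p = 0.00588 from limma). Since 23.5% of the 100-base windows of ZNF417 and 14.7% of those of ZNF587 occur in other genes, the split of reads between them is uncertain. ZNF808, known for silencing MER11 elements in pancreas development, was at 280.2 and 232 normalized reads with siCTL and 59.4 and 85.2 with siG3BP1 (log2 fold change -1.84, standard error 0.35, adjusted p = 1.27e-05 from limma). By contrast, ZNF274, which binds within zinc finger genes of this chromosome and recruits SETDB1 there, was at 255 and 208 normalized reads with siCTL and 166 and 221 with siG3BP1. For ZNF274 the groups overlapped and the difference did not pass (log2 fold change -0.27, standard error 0.34, adjusted p = 0.505 from limma).

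Along the chromosome, members were placed in one cluster as long as no gap between neighbours exceeded 1 Mb, which gave 16 clusters, 4 of them single genes. The 7 clusters with at least 14 tested members held 198 of the 215. In the cluster from 51.6 to 53.6 Mb (ZNF175 to ZNF331, number 15 from the start of the chromosome), 36 of 38 tested members fell and the median log2 fold change was -1.39. The clusters from 11.5 to 12.6 Mb (ZNF653 to ZNF791) with 17 falls of 20, from 36.2 to 37.8 Mb (ZNF565 to ZNF573) with 19 of 24, and from 43.5 to 45.1 Mb (ZNF575 to ZNF296) with 17 of 22 were similar, with medians of -1.45, -1.35 and -1.37. In the cluster next to the centromere, from 19.7 to 24.1 Mb (ZNF101 to ZNF254), only 23 of 36 members were tested, and of those 14 fell and 0 rose. All 5 members without a read lie in this cluster, as do 13 of the 31 that were not tested. Tested members of this cluster had the lowest median exonic GC content of the 7, at 38.1%.

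The last cluster, from 55.5 to 58.5 Mb (ZNF628 to ZNF446), was the largest and the most mixed, with 26 falls and 12 rises among 57 tested members and a median of -0.68. At its start, 9 tested members in a row rose, namely ZNF628, ZNF579, ZNF524, ZNF865, ZNF784, ZNF580, ZNF581, ZNF787 and ZNF444, on chr19:55476332-56160893. Their log2 fold changes lay between 0.78 and 1.42 and their exonic GC content between 58.6% and 70.9%, and the KRAB pattern was found in none of them. ZNF837, ZNF324 and ZNF446 at the other end of the cluster also rose, although 29.4% of the 100-base windows of ZNF324 occur in other genes. Between these ends no member rose, and the member with the largest fall was ZNF471, at 60.7 and 58.8 normalized reads with siCTL and 13.2 and 21.3 with siG3BP1 (log2 fold change -1.80, standard error 0.44, adjusted p = 4.75e-04 from limma). The rises in other clusters were ZNF358 and ZNF414 in the second, ZNF574 and ZNF526, which form the eleventh by themselves, and ZNF575 and ZNF428 in the twelfth. Among the clusters of fewer members, the largest falls were those of ZNF555 (-1.22) in the first, ZNF302 (-1.53) in the eighth and ZNF546 (-1.94) in the tenth, and in the second it was that of ZNF426 (-1.50), with adjusted p values from 1.56e-04 to 0.00332 from limma.

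**Figure D2:**
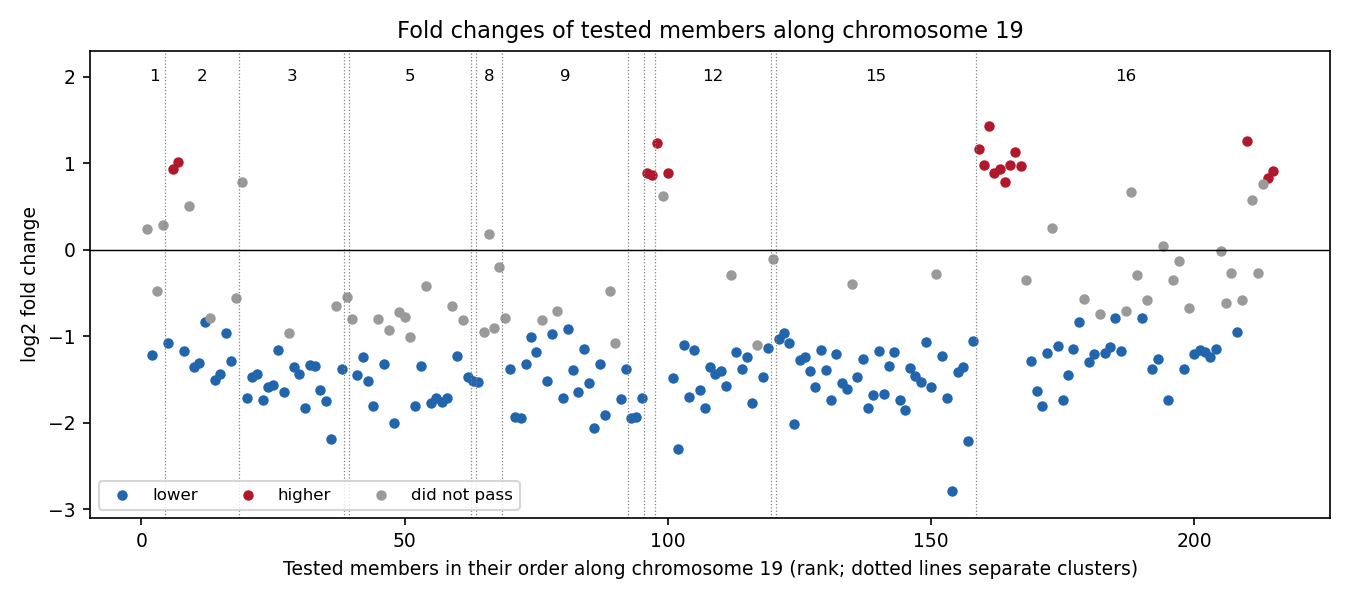
Log2 fold change (siG3BP1 minus siCTL) of the 215 tested members in their order along chromosome 19, with dotted lines between clusters and the cluster number above those with at least 4 tested members. Falls fill all large clusters, while 9 of the 18 rises stand side by side at the start of cluster 16.

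Protein features went along with these differences. At least 1 C2H2 finger was found in the annotated coding sequence of 244 members, with a median of 12 fingers. A pattern of the KRAB domain was found in 178 of these, a count that can miss diverged domains. Among tested members with the pattern, 113 of 157 fell and 1 rose, with a median log2 fold change of -1.26. Among those without it 30 of 57 fell and 17 rose, with a median of -1.01. These medians were -0.50 and -0.19 after the GC correction described below. By number of fingers, 16 of 39 members with up to 8 fingers fell and 12 rose (median -0.42). Of members with 9 to 12 fingers 50 of 72 fell, of those with 13 to 16 fingers 44 of 62, and of those with 17 or more 33 of 41 (median -1.38), and 2 members rose in each of these 3 classes. Spearman's rho between the number of fingers and the fold change was -0.30 over 214 members, and -0.25 after the GC correction. That between the number of linkers and the fold change was -0.43, and -0.21 after it. Between the number of fingers and exonic GC content rho was -0.20. With over 10% of 100-base windows found in other genes 19 of 29 members fell (65.5%, median -1.20). With none 79 of 128 fell (61.7%, median -1.16), and members between these limits are in neither count. The medians of these 2 classes were -0.63 and -0.34 after the GC correction. These are counts over related genes that share libraries and ancestry, and no test was made of them.

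Exonic GC content went along with the fold change more closely than any of these features. The tested members had a median exonic GC content of 43.3%, against 47.9% for all tested genes. Over the 215 members Spearman's rho between GC content and fold change was 0.61 (Pearson's r 0.83), and over 13350 tested genes, measured in the same libraries, rho was 0.80. Among members under 40% GC, 25 of 31 fell (80.6%, where 81.3% of all tested genes in that range fell). Between 40% and 45%, 100 of 119 members fell (84.0%, against 60.7% of all genes), and between 45% and 50%, 19 of 36 (52.8%, against 18.3%). At 50% or more, 0 of 29 members fell and 18 rose (62.1%, against 54.1% of all genes). The share of members that fell was above that of all genes of like GC content from 40% to 50% and close to it under 40%.

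**Figure D3:**
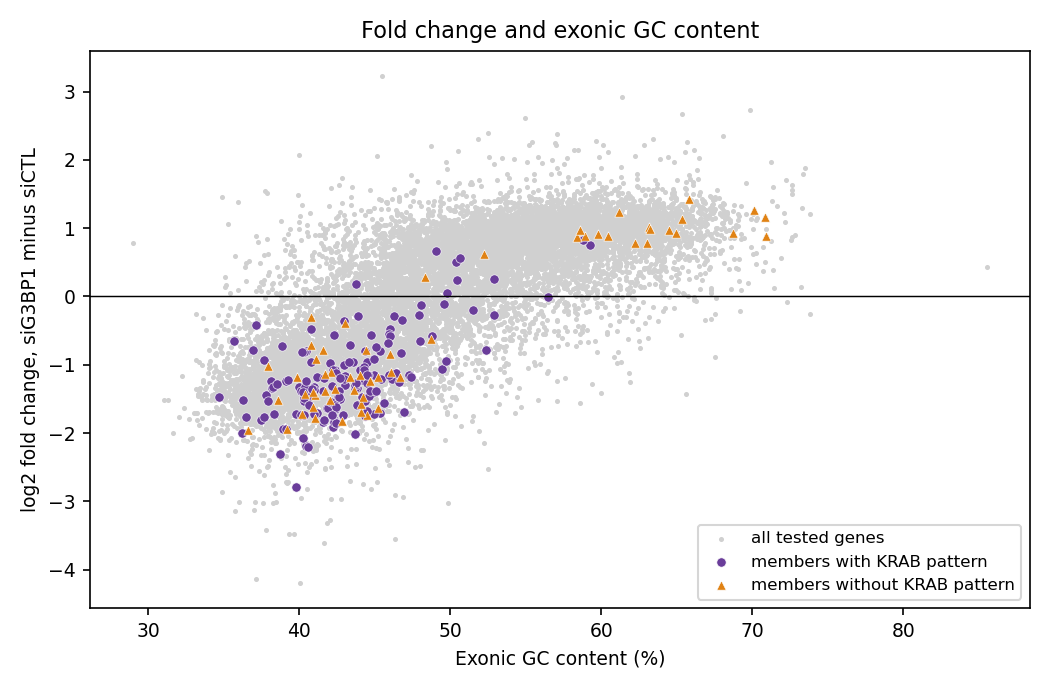
Log2 fold change (siG3BP1 minus siCTL) against exonic GC content (percent) for all tested genes (grey) and for tested members with (circles) and without (triangles) the KRAB pattern. Members follow the slope of all genes, lie in its lower part between 40% and 50% GC, and reach values near 1 above 58% GC.

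To set this trend aside, a smooth curve of each library's deviation on exonic GC content was fitted over all genes and subtracted. The median log2 fold change of the tested members was then -0.43, with quartiles of -0.73 and -0.11, against 0.02 over all genes, and 176 of 215 members (81.9%) were below 0, where 48.6% of all genes were. Both corrected siG3BP1 libraries were below both siCTL libraries for 133 members (61.9%, against 30.4% of all genes) and above for 14 (6.51%, against 33.6% of all genes). With limma and no term for the replicate letter, 0 members passed the adjusted threshold after the correction, and 1 gene of all 13350 did. That gene was G3BP1 itself, at -2.33 (adjusted p = 0.0329 from limma). The prior degrees of freedom, which set how far the spread is pooled over genes, were infinite before and 4.17 after the correction. The numbers of calls before and after it are therefore not directly comparable. At an unadjusted p under 0.05 there were 66 members lower (30.7%, against 13.8% of all genes) and 4 higher (1.86%, against 14.7%), and the smallest adjusted p of a member was 0.0663 (ZNF627). With the replicate letter as a block in the corrected fit, 67 of the 215 members fell and 3 rose, where 14.5% of all genes fell and 14.9% rose. The labels do not say what the letter marks, and the study's statement that treatments were paired with their controls is a general one. The count tests, edgeR and DESeq2, were run only on reads without the GC correction. The corrected median was -0.20 for members under 40% GC, -0.52 between 40% and 45%, -0.68 between 45% and 50% and 0.03 at 50% or more, where that of all genes was -0.08, -0.15, 0.05 and 0.10. A total of 22 members (10.2%) were under -1 after the correction, against 4.37% of all genes.

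The order of the members changed with the correction. Among members whose mean reached 50 normalized reads, ZNF701 was lowest, at -1.51 (adjusted p = 0.0757 from limma), having been at 95.8 and 90.1 normalized reads with siCTL and 18.7 and 43.4 with siG3BP1 before it. ZNF627 was at 216 and 250.0 normalized reads with siCTL and 56.1 and 88.5 with siG3BP1, with a log2 fold change of -1.71 before (adjusted p = 3.82e-05 from limma) and -1.27 after the correction. These and the following members were picked after their corrected values had been seen. ZNF331, an imprinted gene, stayed at -1.23 after -1.06, and ZNF544 at -1.15 after -0.95, both with an exonic GC content just under 50%. ZNF611, which also binds SVA elements, was at -1.10 after -1.67, and the ZNF525 value shrank to -1.65 (adjusted p = 0.192 from limma). ZNF91, with 38.1% GC, went from -1.23 to -0.013. The 9 neighbouring members at the start of the last cluster, all higher before, lay between -0.13 and 0.46 after it. At the upper end stood ZNF599 (0.87, from 0.18), ZNF226 (0.76, from -0.30) and ZNF416 (0.55, from 0.67), and ZNF416 was at 164 and 152 normalized reads with siCTL and 278 and 225 with siG3BP1. By cluster, the corrected median was -0.66 from 11.5 to 12.6 Mb, -0.62 from 51.6 to 53.6 Mb and -0.13 in the cluster next to the centromere.

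Zinc finger genes elsewhere and the other genes of chromosome 19 place these values. Of 218 tested ZNF genes on other chromosomes, 101 fell and 32 rose, with a median log2 fold change of -0.74 and a median exonic GC content of 45.8%, and after the GC correction their median was -0.27. Of 669 tested protein-coding genes of chromosome 19 outside the zinc finger set, 14 fell and 454 rose, with a median of 0.94 at a median GC content of 59.6%, and the corrected median was 0.13. In the range from 40% to 45% GC the corrected median of ZNF genes elsewhere was -0.57, against the -0.52 of the chromosome 19 members, and 53 of 66 of them had fallen (80.3%). The difference between these sets was not tested, since genes of 1 set share their libraries.

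**Figure D4:**
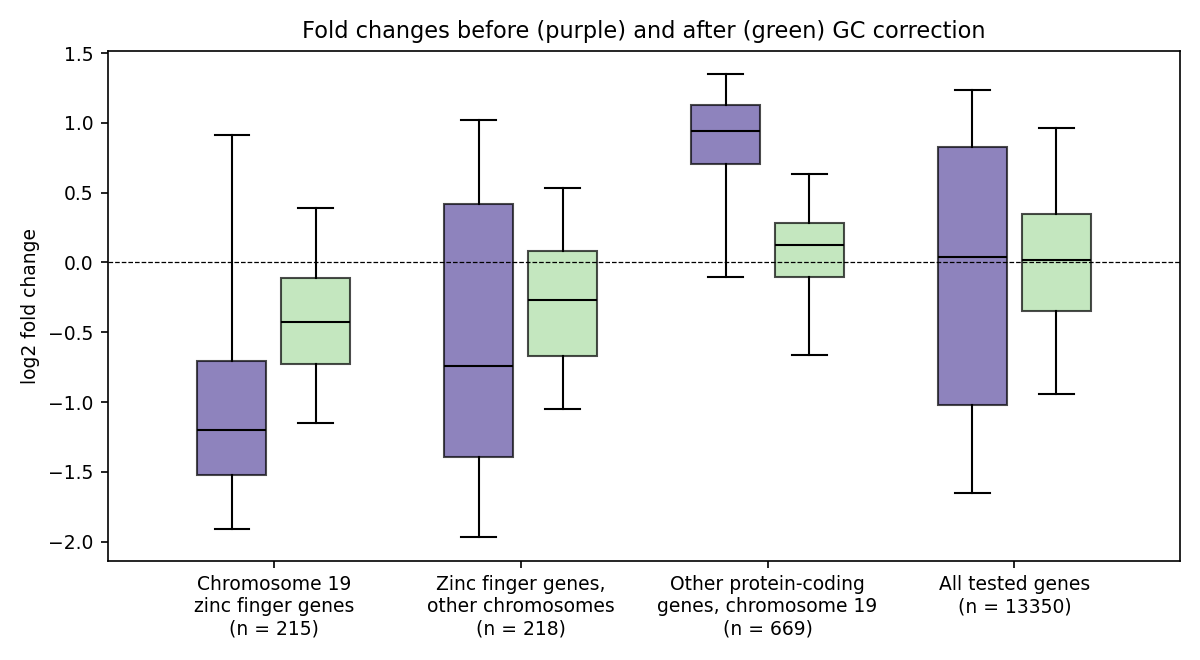
Log2 fold changes before (purple) and after (green) the GC correction for the 215 tested members, 218 ZNF genes elsewhere, 669 other protein-coding genes of chromosome 19 and the 13350 tested genes with a GC value. Boxes span the quartiles around the median and whiskers the 5th to 95th percentiles, and the member box stays below 0 after the correction.

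Promoter composition went along with the fold change less closely than that of the exons. The promoters of ZNF525, which fell, and of ZNF837, which rose, are shown from 250 bases before to 50 after the RefSeq start (GRCh38.p14), with each CG dinucleotide in capitals.
ZNF525, chr19:53365455-53365754, plus strand: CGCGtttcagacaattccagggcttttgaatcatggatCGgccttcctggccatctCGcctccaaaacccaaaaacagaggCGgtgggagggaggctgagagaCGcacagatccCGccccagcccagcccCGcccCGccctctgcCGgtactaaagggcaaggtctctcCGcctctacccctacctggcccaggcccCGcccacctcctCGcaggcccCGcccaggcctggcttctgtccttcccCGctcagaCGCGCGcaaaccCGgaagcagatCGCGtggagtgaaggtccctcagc
ZNF837, chr19:58380981-58381280, minus strand: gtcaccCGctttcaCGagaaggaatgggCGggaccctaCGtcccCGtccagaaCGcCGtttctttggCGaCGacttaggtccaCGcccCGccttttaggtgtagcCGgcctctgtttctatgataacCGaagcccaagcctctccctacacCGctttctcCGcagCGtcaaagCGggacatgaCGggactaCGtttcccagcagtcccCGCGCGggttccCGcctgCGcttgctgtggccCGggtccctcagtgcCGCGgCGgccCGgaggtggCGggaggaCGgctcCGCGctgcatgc
Both windows had a GC content of 65.7%, with 21 and 33 CG dinucleotides, while the exonic GC content was 39.8% for ZNF525 and 70.1% for ZNF837. A RefSeq promoter was matched for 214 members, and 159 of these (74.3%) held at least 15 CG dinucleotides, read on 1 strand since CG is its own complement, against 48.9% of all 35116 promoters. Among the 192 tested members with a promoter, Spearman's rho of the CG count with the fold change was 0.25, and 0.06 after the GC correction.

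The corepressor and heterochromatin genes through which KRAB proteins act moved in both directions before the GC correction and were mostly below 0 after it. Of 34 tested genes of the list, 14 fell and 6 rose (41.2% and 17.6%, beside the 30.5% and 25.9% of all tested genes), and the median log2 fold change was -0.22. The corrected median was -0.30, and 25 of the 34 (73.5%) were below 0, where 48.6% of all genes were. Both corrected siG3BP1 libraries were below both siCTL libraries for 21 (61.8%, against 30.4% of all genes). They were above for 5 (14.7%, against 33.6% of all genes). TRIM28, the scaffold that binds the KRAB domain, was at 2786 and 3531 normalized reads with siCTL and 6875 and 4709 with siG3BP1 (log2 fold change 0.86, standard error 0.33, adjusted p = 0.0210 from limma). It was thus higher in both siG3BP1 libraries, but its exonic GC content is 62.5% and the corrected fold change was -0.055, on the other side of 0. SETDB1, the methyltransferase, was at 381 and 434 normalized reads with siCTL and 598 and 549 with siG3BP1 and did not pass (log2 fold change 0.49, standard error 0.34, adjusted p = 0.196 from limma). After the GC correction SETDB1 stayed at 0.48 and did not pass (adjusted p = 0.143 from limma). With the replicate letter as a block in the corrected fit it passed (adjusted p = 0.0315 from limma). The HP1 genes CBX5, CBX3 and CBX1 all fell. CBX5 was at 4139 and 4404 normalized reads with siCTL and 814 and 1849 with siG3BP1 (log2 fold change -1.80, standard error 0.33, adjusted p = 7.09e-06 from limma), with siG3BP1 A far below siG3BP1 B. After the correction the HP1 genes were at -0.80, -1.003 and -1.32.

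SMARCAD1, a chromatin remodeler that works with TRIM28, was at 311 and 349 normalized reads with siCTL and 65.97 and 111 with siG3BP1 (log2 fold change -1.94, standard error 0.35, adjusted p = 3.04e-06 from limma). ATRX, which deposits histone H3.3 with DAXX, was at 876 and 1198 normalized reads with siCTL and 257 and 304 with siG3BP1 (log2 fold change -1.87, standard error 0.34, adjusted p = 3.93e-06 from limma). In both genes the groups were far apart. KIAA1551 (RESF1), a partner of SETDB1, fell by 1.92 on the log2 scale (adjusted p = 1.64e-05 from limma), as did ATF7IP, which stabilizes SETDB1, by 1.48 (adjusted p = 1.70e-04). SMARCAD1, ATRX, KIAA1551 and ATF7IP were at -0.69, -0.52, -0.75 and -0.30 after the GC correction. FAM208A (TASOR), MPHOSPH8 and PPHLN1, the core of the HUSH silencing complex, fell by 1.40, 1.34 and 0.98, and were at -0.19, -0.70 and 0.088 after the GC correction. Among NuRD genes, MBD3, MTA1 and MTA2 rose while HDAC2, RBBP4 and RBBP7 fell. Their corrected values were 0.23, -0.026 and 0.11, and -0.29, -0.081 and -0.16. The histone methyltransferases EHMT2 and SUV39H1 rose while SUV39H2 fell, with corrected values of 0.069, 0.18 and -0.36. After the GC correction, with the replicate letter as a block, 12 of the 34 fell and 1 (SETDB1) rose with limma. In that fit 14.5% of all genes fell and 14.9% rose. With no term for the letter 0 of the 34 passed. At an unadjusted p under 0.05, 11 were lower and 2 higher, where 13.8% of all genes were lower and 14.7% higher. How the number of calls varied on leaving out a library is given further below. Without siCTL A, which left 1 library in that group, the log2 fold changes of ATRX, SMARCAD1, CBX5 and KIAA1551 were -2.10, -2.02, -1.84 and -1.99.

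**Figure D5:**
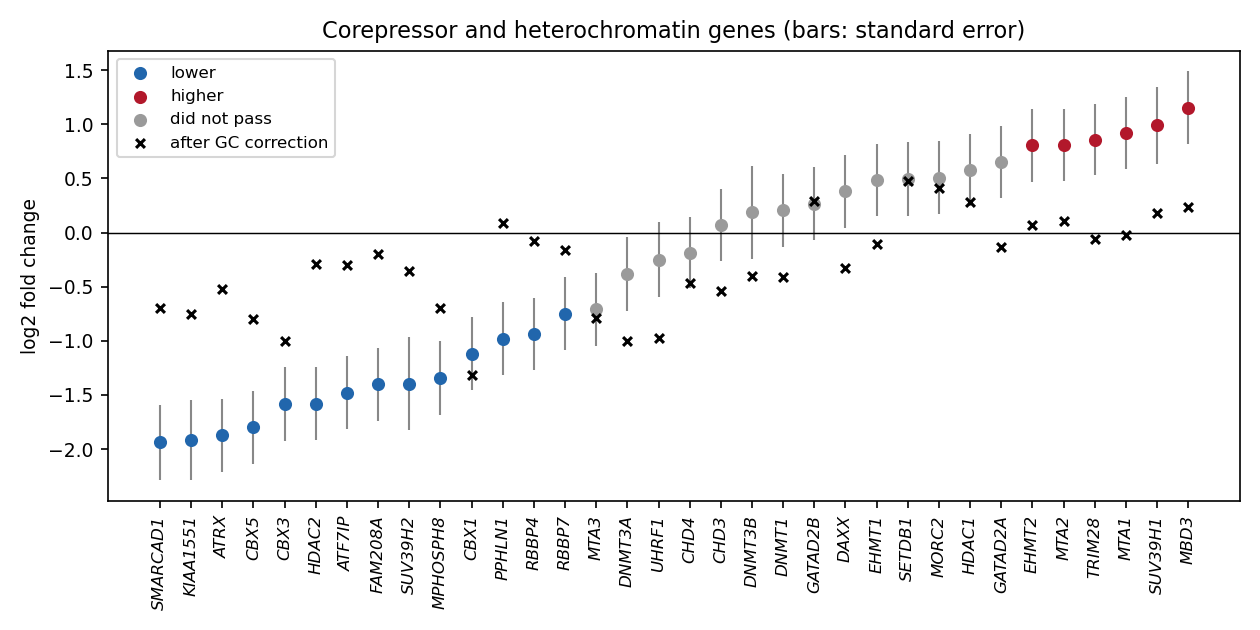
Log2 fold change (siG3BP1 minus siCTL) of the 34 tested corepressor and heterochromatin genes, ordered by size, with standard errors from limma as bars and the value after GC correction as a cross. The 14 falls stand on the left and the 6 rises on the right, and the crosses lie nearer to 0 than the points for 19 of the 20 genes that changed, CBX1 being the exception.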

How the data were processed

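Total RNA was sequenced from irradiated WI-38 cells, with 2 libraries (A and B) for siCTL and 2 for siG3BP1. According to the study's methods the authors trimmed reads with Trimmomatic 0.35, aligned them with STAR to GRCh38 with a Gencode annotation, took stranded read counts from STAR and normalized them with DESeq2 1.22.1. RSEM served for TPM or FPKM values, which were not used here. The submitters' processing notes also list TopHat2 2.0.10, and mm10 and GRCm38, which are mouse builds, with no role. The deposited per-library values are a signal, the reads of a gene divided by a size factor of the library. The division could be undone to whole reads for 100% of values (tolerance 1e-06 reads), which gave 16944404 (A) and 22745000 (B) reads in genes with siCTL and 17169469 (A) and 19233994 (B) with siG3BP1. A value of 0 allows up to 3 reads, for counting error only. The authors' fold changes and p-values, deposited in the same table, were not used.

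The 13422 genes of 58219 whose mean reached 10 normalized reads were tested, two-sided, on log2(value + 0.5) with limma 3.58.1 in R 4.3.3 (mean-variance trend, Benjamini-Hochberg adjustment over all tested genes, threshold 0.05). The prior degrees of freedom were infinite here, so a standard error follows the trend over genes of like level, and were 4.17 after the GC correction. That correction fitted, for each library, a loess curve (span 0.3) of the departures from gene means on exonic GC content and subtracted it. GC content came from Gencode 44 on GRCh38, a later annotation on the same build, for 99.5% of tested genes. Fingers, linkers and the KRAB pattern were counted in translations of its coding sequences, and 100-base windows of each member's exons were looked up in the exons of all other genes. How the authors' counting treated reads that match several genes is not given in the sources used here. Finger sequences were read from GRCh38, and promoters are RefSeq's (GRCh38.p14).

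The genes named are the 8 largest falls and 8 largest rises past the threshold with no overlap between groups, the 6 highest per kb of exon, the largest fall and rise of each cluster with at least 3 tested members, the 4 nearest to 0, and, of the corepressor list, TRIM28, SETDB1 and the 4 smallest p. Others are said to be chosen after their values were seen, or are given as examples of their complex or position. Members and lists were chosen with earlier results of these data known. Alternatives were pseudocounts of 1 and 5, filters at means of 1 and 50 and none, TMM and quantile scaling, protein-coding genes only, GC and length corrections, the replicate letter as a block, edgeR 4.0.16 and DESeq2 1.42.0 on recovered reads, and each library left out. The GC correction with each library left out was added after the data were seen.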

Additional observations from a re-analysis of the deposited data

How the results depend on the processing

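The median log2 fold change of the members stayed below 0, and falls outnumbered rises, in every alternative that called a member. TMM scaling, quantile scaling, edgeR and DESeq2 gave 148, 123, 149 and 117 falls, and all 144 falls kept a negative fold change in each of these 4. With a minimum mean of 50 there were 87 falls among 133 members, the filter leaving fewer to test. After the GC correction 0 members fell and 0 rose, the median was -0.43, and 0 corepressor genes fell and 0 rose, while ZNF580 (-0.13), ZNF358 (-0.066) and TRIM28 (-0.055) turned below 0. The length correction gave 11 rises among the corepressor genes. The cause was not tested.

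Over the 4 fits that leave out 1 library, falls ranged from 0 to 161, rises from 0 to 24 and the median from -1.46 to -0.91. Corepressor falls ranged from 0 to 16 and rises from 0 to 12. With the GC correction as well, an alternative chosen after seeing the data, falls ranged from 0 to 43, rises from 0 to 3, and the median was -0.46 (A) and -0.39 (B) on leaving out a siCTL library and -0.37 (A) and -0.47 (B) on leaving out a siG3BP1 library. A group left with 1 library was assumed to vary like the other.

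The letters A and B are shared by the groups without a stated meaning, and the differences between A and B correlated between the groups at 0.30 over all tested genes, 0.0017 over members and 0.48 over all genes after the GC correction. With the replicate block 142 members fell and 11 rose, and 2 corepressor genes rose. The GC correction with the replicate block gave 67 falls and 3 rises among the members, where 14.5% of all genes fell and 14.9% rose. The median of the members was -0.43, 12 corepressor genes fell and 1 rose. ZNF580, ZNF358 and TRIM28 were at -0.13, -0.066 and -0.055. The 31 untested members lay under the minimum mean, and in 13 of them over 10% of the 100-base windows occur in other genes.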

Other observations

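The ZNF rule leaves out zinc finger genes of chromosome 19 with other kinds of names. Of 14 such genes 8 were tested, 5 fell and 1 rose, where 30.5% of all tested genes fell and 25.9% rose. ZFP28 was at 145 and 118 normalized reads with siCTL and 41.8 and 44.2 with siG3BP1 (log2 fold change -1.60, standard error 0.37, adjusted p = 2.57e-04 from limma), and ZFP30, ZFP14 and ZFP82 also fell. ZSCAN18, with 56.5% exonic GC, was at 342 and 363 normalized reads in the siCTL libraries and at 771 and 530.1 in the siG3BP1 libraries (log2 fold change 0.86, adjusted p = 0.0236 from limma). After the GC correction the median of the 8 was -0.22, with ZFP28 at -0.41, ZFP30 at -0.54, ZFP14 at -0.27, ZFP82 at -0.17 and ZSCAN18 at 0.099.

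Neighbours within a cluster had related values. Over 201 pairs of adjacent tested members Spearman's rho of their fold changes was 0.36, and 0.30 after the GC correction; pairs overlap in their genes and share all 4 libraries, and neighbours also share sequence.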
